A study of Mus musculus with 4 samples.

Results

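Genes of the NRF2 antioxidant response were chosen by name, as a set of 10: Nfe2l2, Keap1, Hmox1, Nqo1, Gclc, Gclm, Txnrd1, Srxn1, Gpx2 and Gsr. These 10 genes and the lists of related genes below were chosen with earlier results of these data known, so counts of calls among them are descriptions. All 10 were found among 54752 genes measured by total RNA sequencing in the epidermis of 4 mouse pups labelled C57BL/6 at P0, the day of birth. The knockout pups (n = 2) were Skiv2l fl/fl K14-Cre, with both Skiv2l alleles floxed and Cre driven by the keratin 14 promoter, which is active in basal keratinocytes, so that cells of other lineages keep the gene. The control pups (n = 2), Skiv2l ctl, could be fl/fl or fl/+ without Cre or fl/+ with K14-Cre, and the genotype of each is not given, so a control may carry Cre and 1 floxed allele. The comparison asked how RNA levels differ when keratinocytes lose SKIV2L, a helicase that feeds RNA into the cytoplasmic exosome. Levels are in FPKM, which counts fragments per gene scaled by transcript length and by library size.

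NRF2, encoded by Nfe2l2, is a transcription factor that KEAP1 holds for degradation through a CUL3 ubiquitin ligase. When oxidants or electrophiles modify cysteines of KEAP1, NRF2 accumulates, pairs with a small MAF protein and binds antioxidant response elements near genes for glutathione synthesis, thioredoxin recycling, quinone reduction and heme breakdown. In skin the pathway is known for protecting keratinocytes from ultraviolet light and chemicals. Much of this control acts on the stability of the NRF2 protein, which RNA levels do not measure.

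Nqo1, Srxn1 and Nfe2l2 were higher in knockout epidermis, and Gsr and Keap1 were lower (limma, adjusted p under 0.05 over all tested genes). Hmox1, Gclc, Gclm, Txnrd1 and Gpx2 were not called. The 3 calls higher stand beside 8.99% of the 13609 tested protein-coding genes called higher, and the 2 calls lower beside 25.4% called lower. For 5 genes (Nfe2l2, Srxn1, Nqo1, Gclc and Gpx2) both knockout pups lay above both control pups, as for 18.2% of tested genes. For 3 genes (Keap1, Txnrd1 and Gsr) both lay below, as for 55.3%. Nqo1 and Gpx2 passed the filter of FPKM above 0.5 only in knockout libraries, so they could be tested only with a higher knockout level, and the counts over the 10 genes are not support for a direction of the set.

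**Figure D1:**
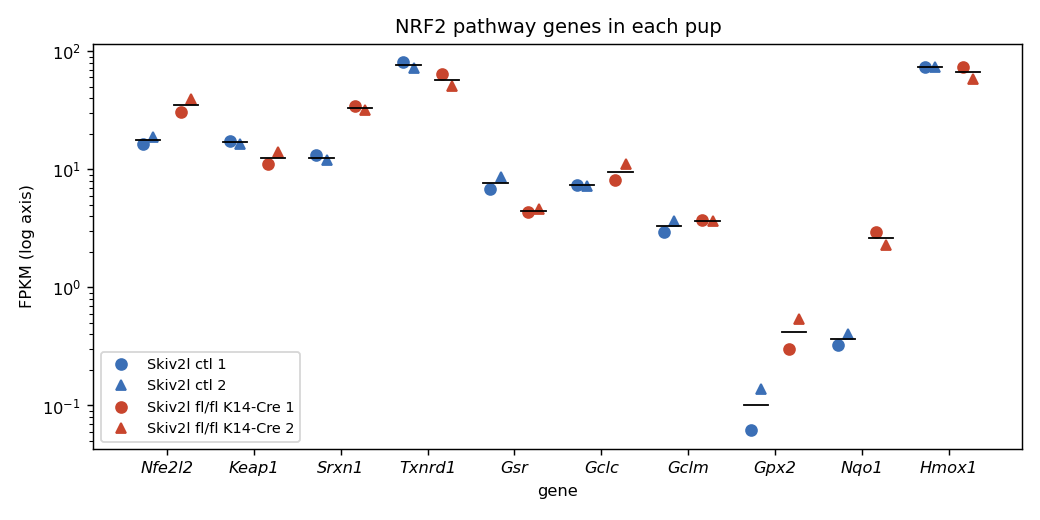
FPKM of the 10 genes in each pup on a log axis, with Skiv2l ctl in blue, Skiv2l fl/fl K14-Cre in red, pup 1 as circles, pup 2 as triangles and a black line at each group mean (n = 2). Srxn1, Nfe2l2 and Nqo1 are higher in both knockout pups, Gsr and Keap1 are lower in both, and the pups of Hmox1 and of Gclm overlap between genotypes.

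Libraries were of similar depth, at 5.843 to 6.274 aligned gigabases. This is the most common ratio of coverage to FPKM in each library, which 3113 to 3760 genes had, while other genes had other ratios. Genes above 0.5 FPKM numbered 17761 and 17638 in control pups and 17384 and 16138 in knockout pups, fewest in the second knockout pup. Skiv2l itself had 19.3 and 19.1 FPKM in control pups and 10.8 and 8.55 in knockout pups, a log2 difference of -0.92 (SE 0.12, limma adjusted p = 0.00368). It was not called without the first control library (adjusted p = 0.0562) or without the second (0.0547). A log2 difference here is knockout minus control in log2(FPKM + 1), and it is smaller than the log2 ratio for genes at low FPKM. Its median over all tested genes was -0.20, and -0.03 when libraries were brought to a common median. Of 8 keratinocyte markers, all tested, 2 were called higher (Krt14 and Dsg3) and 3 lower (Krt1, Krt15 and Lor), beside 8.99% and 25.4% of all tested genes. Krt14 rose from 1736 and 1812 to 7381 and 7312 FPKM and Lor fell from 828 and 867 to 448 and 444, and Krt5, at 2003 and 2075 in control pups and 1761 and 1759 in knockout pups, was not called. By contrast 5 skeletal muscle and 4 adipocyte markers summed to less than 1 FPKM in each library. In whole epidermis, fewer cells of a type and less RNA per cell cannot be told apart. For 2 pups against 2 the smallest two-sided p of an exact permutation test is 0.333. Tests of single genes therefore rest on the spread that limma shares across genes, and p-values speak only for the spread among these pups.

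Promoters of the 3 genes called higher are shown because antioxidant response elements are often found close to the start of transcription. RefSeq windows on GRCm38.p6, reaching from 250 bases before to 50 bases after an annotated start, were matched for 7 of the 10 genes, in 9 windows. Capitals mark TGACNNNGC, the core of the antioxidant response element, or TGACTCA, the AP-1 site, on either strand. The windows are chr2:152105274-152105573 (plus strand) for Srxn1, chr2:75704614-75704913 (minus strand) for Nfe2l2 and chr8:107403156-107403455 (minus strand) for Nqo1, each written 5′ to 3′ along the gene.
Srxn1: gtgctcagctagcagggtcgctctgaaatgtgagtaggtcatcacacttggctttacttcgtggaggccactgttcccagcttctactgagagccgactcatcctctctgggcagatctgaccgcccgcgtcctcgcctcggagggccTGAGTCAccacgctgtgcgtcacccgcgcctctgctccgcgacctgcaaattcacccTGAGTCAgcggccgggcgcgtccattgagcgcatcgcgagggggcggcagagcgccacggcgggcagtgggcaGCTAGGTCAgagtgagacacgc
Nfe2l2: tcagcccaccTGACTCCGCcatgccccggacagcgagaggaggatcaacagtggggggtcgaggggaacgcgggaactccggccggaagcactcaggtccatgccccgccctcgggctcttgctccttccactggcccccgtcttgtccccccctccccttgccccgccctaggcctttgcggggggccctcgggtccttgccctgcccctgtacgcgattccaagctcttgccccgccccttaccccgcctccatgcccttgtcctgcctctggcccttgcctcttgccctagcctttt
Nqo1: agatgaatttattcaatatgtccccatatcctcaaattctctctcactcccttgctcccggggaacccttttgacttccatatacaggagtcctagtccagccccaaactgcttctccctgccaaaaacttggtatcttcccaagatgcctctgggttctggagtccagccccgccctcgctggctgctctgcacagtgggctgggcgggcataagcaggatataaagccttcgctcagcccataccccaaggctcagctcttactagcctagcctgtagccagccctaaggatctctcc

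In Srxn1 both AP-1 matches lay on the strand opposite to the gene, at positions -102 and -45 from the start site, and the core element match, TGACCTAGC on that strand, lay at position 28. An AP-1 match was present in 5.2% of 32817 promoter windows, and 2 or more in 0.222%. The Nfe2l2 window held TGACTCCGC at position -240, and the Nqo1 window held no match. Over the 9 windows the core element occurred in 4 (Srxn1, Nfe2l2, Gclm and Txnrd1), against 12.4% of all windows. Txnrd1 had several windows, and only that at 82858956 to 82859255 held the match. Counted by gene it was in 4 of the 7, against 14% of 26994 genes, and Hmox1, Gclc and Gsr had no window. TGACTCAGC, which joins an AP-1 site to the core element, was in 0 of the 9 windows and in 0.454% of all. TGACGTCA, the cAMP response element, was in 0 and in 1.79%. The form TGAGTCAGC, an AP-1 site read on its other strand and followed by GC, was not searched. The Srxn1 window holds it along the gene at position -45, and its share over all windows was not counted. A match describes letters in a short window, and sequence farther away was not searched.

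The transcription factor and its sensor differed in opposite directions. Nfe2l2 (ENSMUSG00000015839.6, chromosome 2, 75675513 to 75704641 on GRCm38) had 16.2 and 18.97 FPKM in control pups and 30.7 and 39.3 in knockout pups. Both knockout pups were above both control pups, with means of 17.6 ± 1.93 and 34.998 ± 6.12 (SD, n = 2). The log2 difference was 0.95 (SE 0.14, limma adjusted p = 0.00515). Without the first control library it was 0.84, with a limma adjusted p of 0.0643.

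Keap1 (ENSMUSG00000003308.15, chromosome 9, 21229730 to 21239361), the adaptor that delivers NRF2 to the ubiquitin ligase, had 17.4 and 16.4 FPKM in control pups and 11.2 and 13.98 in knockout pups. Both knockout pups were lower, by a log2 difference of -0.41 (95% interval -0.71 to -0.10, limma adjusted p = 0.0492), which is -0.21 relative to the median of all tested genes. The call was lost with median scaling (-0.21, limma adjusted p = 0.297) and with quantile normalization (-0.26, limma adjusted p = 0.185). It was also lost without the first control library (limma adjusted p = 0.233), the second control library (0.173) or the first knockout library (0.106). Exons of Keap1 overlap the antisense gene Gm16754, which had 1.94 and 1.56 FPKM in control pups and 1.17 and 0.972 in knockout pups, and 6.17% of the 75-base stretches of Keap1 transcripts occur in it. Whether strand was used in counting is not given in the sources used here, so reads of the pair may not have been told apart. The FPKM ratio of Nfe2l2 to Keap1 was 0.936 and 1.16 in control pups and 2.75 and 2.81 in knockout pups. That these do not overlap follows from Nfe2l2 being higher and Keap1 lower in both knockout pups, and is no separate result.

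**Figure D2:**
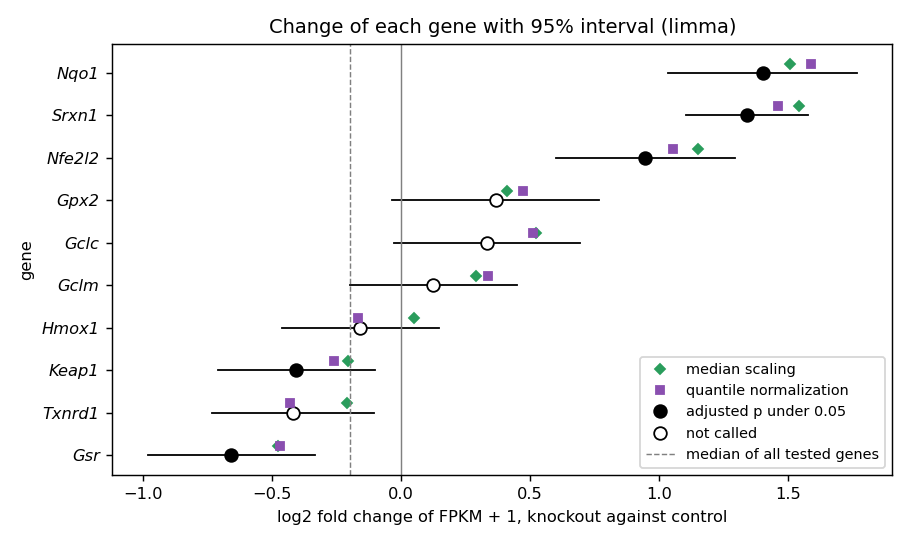
Log2 difference of FPKM + 1, knockout against control, with its 95% interval from limma for each gene, filled where the adjusted p was under 0.05 and open where not, with green diamonds for median scaling, purple squares for quantile normalization and a dashed line at the median of all tested genes. Nqo1, Srxn1 and Nfe2l2 lie to the right under each scaling, Keap1 lies closer to 0 under both alternatives, and Hmox1 crosses 0 under median scaling.

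Within the thioredoxin system, which keeps peroxiredoxins reduced so that they can remove peroxides, Srxn1 was called and Txnrd1 was not. Srxn1 (ENSMUSG00000032802.8, chromosome 2, 152105516 to 152111376) encodes sulfiredoxin, which repairs over-oxidized peroxiredoxins. It had 13.2 and 11.96 FPKM in control pups and 34.7 and 32.02 in knockout pups. The gap between genotypes exceeded the spread between pups, with means of 12.6 ± 0.8802 and 33.3 ± 1.88 (SD, n = 2) and a log2 difference of 1.34 (SE 0.10, limma adjusted p = 0.000494).

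Txnrd1 (ENSMUSG00000020250.10, chromosome 10, 82833951 to 82897712), the cytosolic thioredoxin reductase, had 80.5 and 72.2 FPKM in control pups and 63.8 and 50.5 in knockout pups. Both knockout pups lay below both control pups, and the log2 difference of -0.42 (95% interval -0.73 to -0.10) missed the threshold at a limma adjusted p of 0.0501. Keap1 and Txnrd1 thus lie just either side of the threshold with nearly equal differences. The difference of Txnrd1 was -0.22 relative to the median of all tested genes. It was -0.58 without the first knockout library and -0.25 without the second. Without the first control library it was -0.34, and without the second -0.50. Txnrd1 was called with the replicate number as a block (limma adjusted p = 0.0139). It was not called with median scaling (-0.21, limma adjusted p = 0.264). The FPKM ratio of Srxn1 to Txnrd1 was 0.164 and 0.166 in control pups and 0.543 and 0.634 in knockout pups. Its direction follows from Srxn1 being higher and Txnrd1 lower in both knockout pups.

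Among 19 tested genes for thioredoxins, peroxiredoxins and methionine sulfoxide reductases, 5 were called higher and 3 lower, and the list's median was -0.05 beside -0.20 for all tested genes, of which 8.99% and 25.4% were called. Txn1, the thioredoxin that TXNRD1 reduces, rose from 52.6 and 52.9 to 91.7 and 108 FPKM (log2 difference 0.90, limma adjusted p = 0.00195). Txnrd3, a related reductase, rose from 3.41 and 5.61 to 9.91 and 8.996 FPKM (0.95, limma adjusted p = 0.0152). Txnip, whose product binds and inhibits thioredoxin, fell from 129 and 117 to 83.6 and 67.1 FPKM (-0.70, limma adjusted p = 0.0089), although 13.8% of its 75-base stretches occur in an antisense gene. Sesn3, a sestrin, fell from 6.91 and 6.99 to 4.04 and 3.95 FPKM. Of the peroxiredoxins that sulfiredoxin repairs, Prdx3 rose by 0.42 on the log2 scale, Prdx2 fell by 0.44, and Prdx1, with 54.2 and 59.9 FPKM in control pups and 60.5 and 62.6 in knockout pups, was not called. Prdx4, with 5.86 and 7.27 FPKM in control pups and 5.52 and 3.70 in knockout pups, was not called either (limma adjusted p = 0.11). Prdx2 shares 8.61% of its stretches with other genes.

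Glutathione synthesis begins with glutamate-cysteine ligase, made of a catalytic subunit from Gclc and a modifier subunit from Gclm, and neither gene was called. Gclc (ENSMUSG00000032350.9, chromosome 9, 77754535 to 77794485) had 7.43 and 7.21 FPKM in control pups and 8.14 and 11.02 in knockout pups. Both knockout pups were above both control pups, with the second well above the first. The log2 difference was 0.33 (95% interval -0.03 to 0.69, limma adjusted p = 0.127), and without the first knockout library it was 0.53 (limma adjusted p = 0.0233). Gclm (ENSMUSG00000028124.15, chromosome 3, 122245557 to 122270732) had 2.92 and 3.68 FPKM in control pups and 3.7005 and 3.64 in knockout pups. Its groups overlapped, with a log2 difference of 0.12 (95% interval -0.20 to 0.45, limma adjusted p = 0.484), and 3.499% of its stretches occur in other genes. Among these Ppia had 391 and 426 FPKM in control pups and 341 and 365 in knockout pups, and Gm10123 had 35.9 and 37.6 in control pups and 32.2 and 36.9 in knockout pups, far above Gclm, so its level is uncertain. The FPKM ratio of Gclc to Gclm was 2.54 and 1.96 in control pups and 2.2 and 3.02 in knockout pups, which overlapped as well.

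Gsr (ENSMUSG00000031584.16, chromosome 8, 33652523 to 33698163), which returns oxidized glutathione to its reduced form, had 6.78 and 8.54 FPKM in control pups and 4.35 and 4.57 in knockout pups. Both knockout pups were lower, with means of 7.66 ± 1.25 and 4.46 ± 0.155 (SD, n = 2). The log2 difference was -0.66 (SE 0.13, limma adjusted p = 0.0139), or -0.46 relative to the median of all tested genes. It was not called without the first control library (limma adjusted p = 0.0551) or the second (0.116).

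Gpx2 (ENSMUSG00000042808.8, chromosome 12, 76792333 to 76795554), a glutathione peroxidase best known from gut epithelium, was close to absent. It had 0.0615 and 0.139 FPKM in control pups and 0.302 and 0.541 in knockout pups. Both knockout pups were above both control pups, and only the second passed 0.5 FPKM. The log2 difference was 0.37 (95% interval -0.04 to 0.77, limma adjusted p = 0.13). Its deposited coverage was 0.368 and 0.467 reads per base in control pups and 0.683 and 1.15 in knockout pups, so few reads stand behind these levels.

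**Figure D3:**
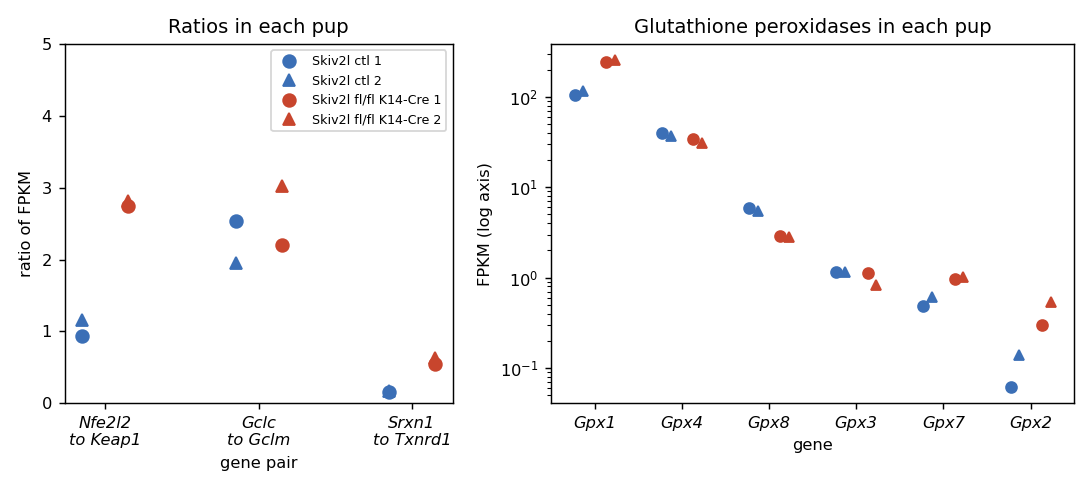
Left, FPKM ratios of 3 gene pairs in each pup, and right, FPKM of the glutathione peroxidase genes above 0 in each pup on a log axis, with Skiv2l ctl in blue, Skiv2l fl/fl K14-Cre in red, and pups 1 and 2 as circles and triangles. The ratios of Nfe2l2 to Keap1 and of Srxn1 to Txnrd1 are higher in both knockout pups, which follows from the levels of the single genes. That of Gclc to Gclm overlaps, and Gpx1 is the highest and Gpx2 the lowest peroxidase in each pup.

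Gpx2 made up 0.0408 and 0.0861% of the summed glutathione peroxidase FPKM in control pups and 0.106 and 0.186% in knockout pups. Gpx1, the main cytosolic peroxidase, made up 68.8 and 72.7% in control pups and 86.2 and 87.5% in knockout pups. Its level rose from 104 and 117 to 245 and 255 FPKM (log2 difference 1.17, limma adjusted p = 0.000672). Gpx4, which reduces lipid peroxides, had 39.4 and 36.7 FPKM in control pups and 33.9 and 31.3 in knockout pups and was not called, and 29.8% of its stretches occur in other genes. Gpx3, a secreted form, had 1.15 and 1.15 FPKM in control pups and 1.12 and 0.834 in knockout pups and was not called. On the list of these peroxidases with catalase and the superoxide dismutases, 1 of 9 tested genes was called higher and 4 lower (median -0.22 beside -0.20), beside 8.99% and 25.4% of all tested genes, and Gpx5 and Gpx6 were listed at 0 in all 4 libraries. Cat, which encodes catalase, fell from 69.3 and 76.3 to 26.7 and 21.7 FPKM (-1.56, limma adjusted p = 0.000632). Sod3, the extracellular superoxide dismutase, fell from 13.9 and 10.02 to 5.66 and 5.94 FPKM.

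Nqo1 (ENSMUSG00000003849.8, chromosome 8, 107388225 to 107403206) encodes a quinone reductase that is widely used as a readout of NRF2. It had 0.324 and 0.405 FPKM in control pups and 2.93 and 2.299 in knockout pups. Both knockout pups were far above both control pups, and the ratio of the means was 7.17. The log2 difference was 1.40 (SE 0.15, limma adjusted p = 0.00173), and 2.54 with a pseudocount of 0.1 in place of 1. Its coverage was 1.97 and 2.54 reads per base in control pups and 17.1 and 13.6 in knockout pups, and in each library it stood at place 9 of the 10 genes by FPKM.

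Hmox1 (ENSMUSG00000005413.8, chromosome 8, 75093621 to 75100589), the inducible heme oxygenase, had 73.8 and 73.1 FPKM in control pups and 74.2 and 58.1 in knockout pups. The first knockout pup was level with the control pups, and the second was lower. The log2 difference was -0.16 (95% interval -0.46 to 0.15, limma adjusted p = 0.347). Its direction turned with median scaling (0.05) and without the second knockout library (0.01), while without the first knockout library it was -0.33 (limma adjusted p = 0.0392).

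By FPKM, Txnrd1 and Hmox1 were the most abundant of the 10 genes in each library, and together held 70.6 and 68.3% of their summed FPKM in control pups and 59 and 50.3% in knockout pups. In control pups Keap1 and Nfe2l2 came next, in a different order in each pup, and Srxn1 followed. In knockout pups Srxn1 and Nfe2l2 came next, again in a different order in each pup, and Keap1 followed. Gclc and Gsr exchanged places between the control pups, and Gclm, Nqo1 and Gpx2 were the lowest in each library. The summed FPKM of the 10 genes was 219 and 213 in control pups and 234 and 216 in knockout pups.

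Of 21 tested partners and regulators of NRF2, 1 was called higher and 5 lower, with a median of -0.16 beside -0.20 for all tested genes, of which 8.99% and 25.4% were called. Bach1, a repressor that competes with NRF2 for its elements, rose from 17.2 and 19.3 to 26.7 and 25.1 FPKM (log2 difference 0.48, limma adjusted p = 0.0135). Its relative Bach2 fell from 14.4 and 13.4 to 9.26 and 8.47 FPKM (-0.59, limma adjusted p = 0.00791). Nfe2, a relative of Nfe2l2 known from blood lineages, fell from 6.24 and 3.41 to 0.985 and 0.237 FPKM (-1.85, limma adjusted p = 0.00734). The summed FPKM of 7 erythroid markers was 134 and 125 in control pups and 62.1 and 80.8 in knockout pups, and their part in the fall of Nfe2 was not tested. Sqstm1, whose product p62 sequesters KEAP1, had 30.1 and 33.3 FPKM in control pups and 38.5 and 36.1 in knockout pups and was not called (limma adjusted p = 0.0978), with 14.6% of its stretches shared with an overlapping gene. Maff, Mafg and Mafk, the small MAF partners of NRF2, were not called.

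**Figure D4:**
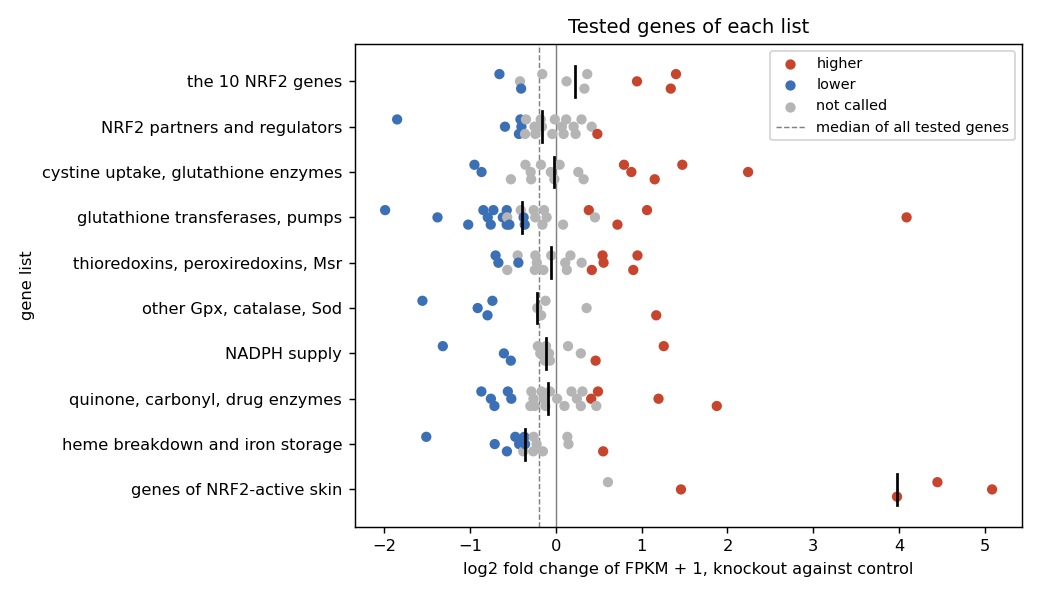
Log2 difference of FPKM + 1, knockout against control, for each tested gene of the 10 NRF2 genes and of 9 lists of related genes, in red where called higher, blue where called lower and grey where not called, with a black line at each list's median and a dashed line at the median of all tested genes. Each list except the genes of NRF2-active skin holds calls in both directions, and the medians of the glutathione transferases and of the heme and iron genes are the lowest.

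For cystine uptake and other glutathione enzymes, 5 of 17 tested genes were called higher and 2 lower (median -0.02 beside -0.20), beside 8.99% and 25.4% of all tested genes. Slc7a11, the cystine carrier, rose from 2.78 and 2.55 to 19.5 and 13.6 FPKM (log2 difference 2.24, limma adjusted p = 0.000632), and its partner chain Slc3a2 from 43.3 and 39.9 to 69.8 and 75.97. Cth, which makes cysteine from cystathionine, rose from 1.36 and 0.974 to 5.26 and 4.75 FPKM (1.47, limma adjusted p = 0.00123). Slc7a11 and Cth are known targets of ATF4 as well. Cbs, the enzyme that makes cystathionine, fell from 7.71 and 9.69 to 3.39 and 5.38 FPKM, and Ggct, which cleaves gamma-glutamyl amino acids, from 69.5 and 82.2 to 46.8 and 31.9.

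Glutathione transferases, which join glutathione to electrophiles, and the pumps that export the conjugates gave 4 calls higher and 13 lower of 26 tested (median -0.39 beside -0.20), beside 8.99% and 25.4% of all tested genes. Gstp3, 1 of the 4, passed the filter only in knockout libraries, with 0.338 and 0.349 FPKM in control pups and 1.49 and 0.961 in knockout pups. Gsta4, which detoxifies products of lipid peroxidation, rose from 2.22 and 2.45 to 65.3 and 47.5 FPKM (log2 difference 4.09, limma adjusted p = 5.78e-05). Gstm6 rose from 2.02 and 1.85 to 5.24 and 5.02 FPKM (1.06). Gsta2 fell from 17.7 and 18.5 to 4.59 and 3.13 FPKM (-1.99), but 36.6% of its stretches occur in other genes of its family, so its level is uncertain. The pump gene Abcc3 fell from 4.94 and 4.16 to 1.31 and 0.961 FPKM (-1.38).

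Of 24 tested genes for quinone, carbonyl and drug metabolism, the company of Nqo1, 4 were called higher and 5 lower (median -0.10 beside -0.20), beside 8.99% and 25.4% of all tested genes. Akr1b8, an aldo-keto reductase, rose from 2.76 and 2.996 to 15.2 and 11.5 FPKM (log2 difference 1.88, limma adjusted p = 0.000672). Osgin1, an oxidative stress response gene, rose from 0.435 and 0.5799 to 3.83 and 1.46 FPKM (1.20, limma adjusted p = 0.0294), with the first knockout pup well above the second. Cbr2, a carbonyl reductase, fell from 10.5 and 12.3 to 6.001 and 5.56 FPKM, and Ptgr1, a reductase of lipid mediators, from 17.9 and 18.97 to 11.5 and 9.55.

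NADPH is the electron source for Gsr, Txnrd1 and Nqo1. Of 13 tested genes that supply it, 2 were called higher and 3 lower (median -0.12 beside -0.20), beside 8.99% and 25.4% of all tested genes. G6pdx, the entry enzyme of the pentose phosphate pathway, rose from 30.4 and 34.1 to 45.7 and 43.8 FPKM (log2 difference 0.46, limma adjusted p = 0.0132), and 10.6% of its stretches occur in other genes, among them the overlapping Ikbkg. Mthfd2, a mitochondrial folate enzyme and known ATF4 target, rose from 4.83 and 2.98 to 12.9 and 8.52 FPKM. Idh2, a mitochondrial isocitrate dehydrogenase, fell from 52.9 and 55.7 to 34.1 and 36.6 FPKM. Nnt, the mitochondrial transhydrogenase, fell from 9.67 and 9.84 to 2.93 and 3.74 FPKM, although 46.4% of its stretches occur under a second identifier of that name.

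Around Hmox1, the list of heme breakdown and iron storage gave 1 call higher and 7 lower of 15 tested genes (median -0.36 beside -0.20), beside 8.99% and 25.4% of all tested genes. Slc40a1, the iron exporter, fell from 20.6 and 25.98 to 8.03 and 6.95 FPKM (log2 difference -1.51, limma adjusted p = 0.00107). Blvrb, a biliverdin reductase, fell from 12.98 and 10.7 to 6.96 and 6.61 FPKM, and the ferritin light chain Ftl1 from 133 and 154 to 102 and 90.2, with 51.3% of the stretches of Ftl1 found in other genes. The ferritin heavy chain Fth1 had 122 and 134 FPKM in control pups and 107 and 105 in knockout pups and was not called (limma adjusted p = 0.0549). Tfrc, the transferrin receptor, rose from 5.22 and 5.22 to 7.16 and 9.18 FPKM.

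Markers of blood cells differed in the same libraries. All 5 tested of 7 erythroid markers were lower in both knockout pups and 4 were called. All 7 tested of 9 leukocyte markers were lower in both knockout pups and 3 were called. Both counts stand beside 55.3% of all tested genes lower in both knockout pups and 25.4% called lower. Among the 7, Itgam differed little, with 3.47 and 3.55 FPKM in control pups and 3.39 and 3.30 in knockout pups. The summed FPKM of the leukocyte markers was 38.4 and 44.1 in control pups and 24.1 and 20.7 in knockout pups, with Cd207 and Cd163 near 0 in each. The summed FPKM of 6 fibroblast markers was 61.3 and 69.02 in control pups and 21.9 and 25.04 in knockout pups, mostly from Dcn. The part of these cells in the falls of Slc40a1, Blvrb and Ftl1, or in the level of Hmox1, was not tested. Of 6 neutrophil markers, Elane and Ly6g were listed at 0 in all 4 libraries, and Mpo, Csf3r and Camp stayed below 0.5 FPKM. Cxcr2, the only 1 tested, rose from 0.127 and 0.208 to 6.51 and 5.56 FPKM (log2 difference 2.59, limma adjusted p = 0.000202). It passed the filter only in knockout libraries, so it could be tested only with a higher knockout level.

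Of 5 keratinocyte genes known to be raised in mouse skin with active NRF2, 4 were called higher and 0 lower (median 3.98), beside 8.99% and 25.4% of all tested genes. This list, like the 10 genes and the other lists, was chosen with earlier results of these data known. Its count is therefore a description and no support for a direction. Slpi, a secreted protease inhibitor, rose from 1.53 and 1.496 to 99.6 and 71.3 FPKM (log2 difference 5.09, limma adjusted p = 3.12e-05). Sprr2d, a cornified envelope protein, rose from 9.11 and 11.6 to 220.1 and 273 FPKM (4.45), and Sprr2h from 11.05 and 12.6 to 38.3 and 30.4 (1.46). Epgn, a ligand of the EGF receptor, rose from 1.0005 and 0.713 to 38.5 and 20.5 FPKM (3.98). Elovl3, which elongates fatty acids, had 0.463 and 1.03 FPKM in control pups and 1.96 and 1.32 in knockout pups and was not called (limma adjusted p = 0.0703). Slpi and the Sprr2 genes are also known to be raised in inflamed skin.

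**Figure D5:**
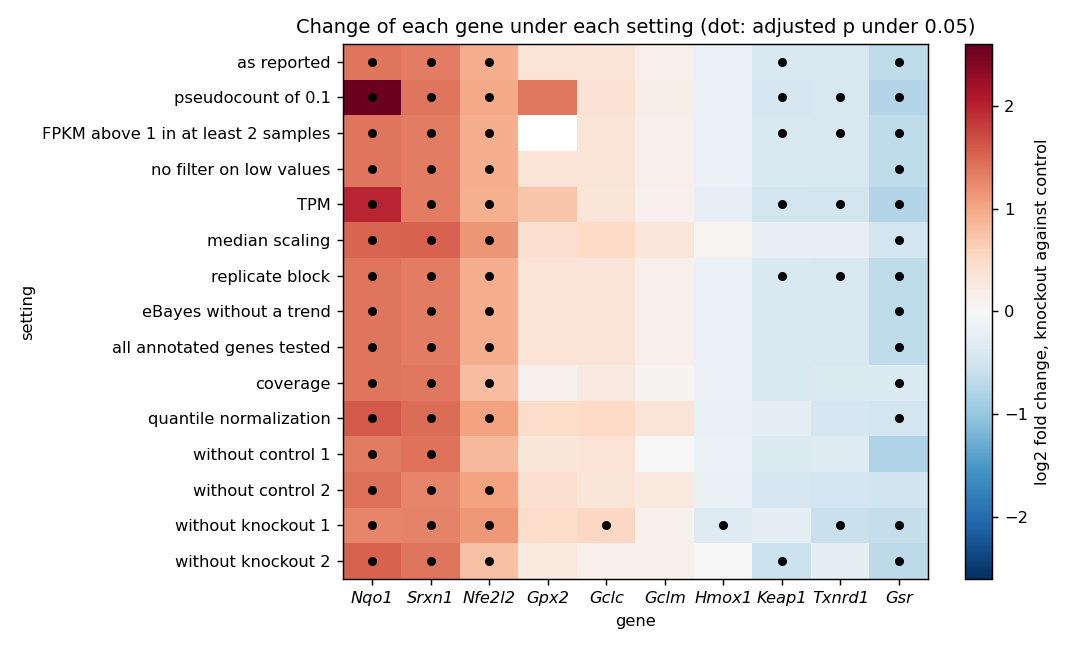
Log2 difference of each of the 10 genes (columns) under each setting of the processing (rows), in red where higher and blue where lower in knockout pups, with a black dot where the adjusted p was under 0.05 and a white cell where the gene failed the filter. Nqo1 and Srxn1 carry a dot in each row, Nfe2l2 in each row but that without control 1, and Gclm and Gpx2 in none.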

How the data were processed

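Total RNA of P0 epidermis from 2 knockout and 2 control pups was sequenced, and the Astrocyte RNASeq workflow was run by the authors. One table per pup was used. Its FPKM were scaled by the authors for transcript length and sequencing depth, and its TPM were deposited with an equal sum per library. Its deposited coverage was taken as read depth averaged over the bases of a gene, but its ratio to FPKM differed between genes. In the first control pup Nfe2l2 had a coverage of 14.6 at 16.2 FPKM, and Nqo1 had 1.97 at 0.324 FPKM. GRCm38 is named in the submitters' processing notes. The aligner and the strandedness are not given in the sources used here, and no counts were used, so counting error is unknown.

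FPKM of an identifier on more than 1 row were summed. Protein-coding genes (21921, GENCODE M21) were kept where any library exceeded 0.5 FPKM, which left 13609. Log2(FPKM + 1) was compared between genotypes, two-sided, by limma 3.58.1 (R 4.3.3; lmFit and trended eBayes), with p-values adjusted by Benjamini-Hochberg across the tested genes and calls at an adjusted p under 0.05. The script was tested on simulated data. The study named iDEP for this step. Depth was 5.843 to 6.274 aligned gigabases, and 37 mitochondrial genes were at 0. Sequence shared between genes was counted over 75-base stretches of GENCODE M21 transcripts. The members and lists were chosen with earlier results of these data known. Named were the 10 genes, Skiv2l, the 2 largest called rises and 2 largest called falls of each list, and Slc7a11, Slpi, Sprr2d, Sprr2h, Epgn, Gpx1, Gpx3, Gpx4, Txn1, Bach1, Sqstm1, Ftl1, Fth1 and G6pdx. Slc3a2, Gstp3, Prdx1, Prdx2, Prdx3, Prdx4, the small MAF genes, Elovl3, Gpx5, Gpx6 and single markers were named after seeing their values. Alternatives were TPM in place of FPKM, a pseudocount of 0.1, a filter at 1 FPKM in 2 or more libraries or none, all annotated genes, quantile normalization or median scaling, untrended eBayes, the replicate block, a threshold of 0.01, omitting each library and, chosen after seeing the data, coverage in place of FPKM.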

Additional observations from a re-analysis of the deposited data

How the results depend on the processing

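Over 15 alternatives Nqo1, Srxn1 and Slc7a11 were called in 15, Nfe2l2 in 14, Gsr in 12, Keap1 and Txnrd1 in 5 each, Gclc and Hmox1 in 1 each and Gclm in 0. Gpx2 was called in 0 of the 14 in which it was tested. The log2 difference of Hmox1 turned to 0.0516 with median scaling and ranged from -0.332 to 0.01498 when each library was left out, and that of Gclm from -0.002627 to 0.252. The cause was not tested. The number of the 10 genes called lower was 2. It was 3 with a pseudocount of 0.1, a filter at 1 FPKM in 2 or more libraries, TPM or the replicate block. This was 1 with no filter, median scaling, quantile normalization, eBayes without a trend, all annotated genes or coverage, 0 at a threshold of 0.01, and 0 to 3 when each library was left out, with 0 without either control library. A group with a library left out keeps 1 pup, which is assumed to vary like the others.

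Calls over all tested genes, 1223 higher and 3455 lower, became 1894 and 1623 with median scaling, so that 53.9% in place of 26.1% were higher. At a threshold of 0.01 there were 669 and 1279. With quantile normalization 1917 were lower, and 46.8% of calls were higher. Leaving out each library gave 497 to 1146 higher and 805 to 3135 lower. Of the 4678 calls, 2846 were also made under median scaling.

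At 0.01, 2 partners and regulators of NRF2 were called (6 at 0.05), 8 glutathione transferases and pumps (17), 4 thioredoxin genes (8), 3 NADPH genes (5), 3 quinone and carbonyl genes (9) and 2 heme and iron genes (8). With no filter 5 thioredoxin genes and 4 heme and iron genes were called, and with median scaling 4 heme and iron genes. Leaving out each library gave 0 to 9 partners and regulators, 5 to 11 cystine and glutathione genes, 6 to 15 transferases and pumps, 2 to 9 thioredoxin genes, 3 to 5 peroxidase, catalase and dismutase genes, 1 to 6 NADPH genes, 1 to 8 quinone and carbonyl genes and 2 to 5 heme and iron genes. The lowest count of each list was reached without the first or the second control library.

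Replicate numbers were not shown to pair the pups, since the differences between pups 1 and 2 correlated at -0.08 between genotypes across genes. With the replicate number as a block, 1264 genes were called higher and 3393 lower, and Txnrd1 was called (limma adjusted p = 0.0139). No other call among the 10 genes changed.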
